A study of Mus musculus with 14 samples.

Results

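Histone deacetylases are enzymes that remove acetyl groups from lysines of histones and other proteins. The genes examined were Hdac1, Hdac2, Hdac3, Hdac4, Hdac5, Hdac6, Hdac7, Hdac8, Hdac9 and Hdac11, and every probe set whose platform symbol was 1 of them was taken, whatever its values. Of these 10 genes, 8 were represented by a probe set with a single symbol, and they had 10 probe sets among the 22626 tested on the array. Hdac7 and Hdac11 had 2 probe sets each, and Hdac4 and Hdac8 were not analysed here.

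Expression was measured on 14 Affymetrix mouse arrays in total RNA of the striatum, 7 from R6/2 mice and 7 from wild-type mice, all 6 weeks old and on a CBAxC57BL/6 background. R6/2 mice carry a transgene with the first exon of the human huntingtin gene and an expanded CAG repeat, driven by the human huntingtin promoter in many cell types, and are a model of Huntington disease. Every animal, R6/2 or wild-type, had received a saline injection 30 to 60 minutes before it was killed. The titles separate the arrays into 2 cohorts, M.C with 4 R6/2 and 4 wild-type arrays (replicates 1 to 4) and Mith with 3 and 3 (replicates 5 to 7). Whether the arrays of a group came from different animals is not labelled, so a p-value here reflects the spread among arrays, which may be technical, and no probe set of the transgene was used, so genotype rests on the labels.

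In chromatin, acetylation of histone tails goes with open, transcribed genes, and deacetylases remove the mark, mostly as subunits of large corepressor complexes. The zinc-dependent enzymes are grouped into classes. Class I (Hdac1, Hdac2, Hdac3, Hdac8) is nuclear and supplies the catalytic subunits of corepressors. Class IIa (Hdac4, Hdac5, Hdac7, Hdac9) moves between nucleus and cytoplasm, binds the Mef2 transcription factors and leaves the nucleus when calcium-dependent and related kinases phosphorylate it and 14-3-3 proteins hold it in the cytoplasm. Class IIb includes the tubulin deacetylase Hdac6, and Hdac11 is the class IV enzyme. Deacetylase inhibitors have been tested as treatments in R6/2 mice, and mutant huntingtin is known to bind the acetyltransferase Crebbp.

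Of the 10 probe sets, only that of Hdac5 passed the genotype test over both cohorts, with a lower signal in R6/2 striatum at 82.1% of the wild-type level (95% interval 74.4 to 90.6%). The other 9 probe sets, for Hdac1, Hdac2, Hdac3, Hdac6, Hdac7, Hdac9 and Hdac11, did not pass, and their differences lay between -0.23 and 0.14 on the log2 scale. A call here is an adjusted p under 0.05 in limma's moderated test, with cohort as a term and Benjamini-Hochberg adjustment over all 22626 probe sets. By that rule 578 probe sets of the whole array (2.55%) were called, 496 of them (2.19%) lower in R6/2 striatum. The count of 1 in 10 stands beside that background and is too small to set the family apart from the array. At an unadjusted p under 0.05 there were 3 deacetylase probe sets (Hdac5, Hdac1 and 1 of Hdac11), and 15.2% of all probe sets. The median difference of the 10 was -0.02, beside 0.01 for all probe sets, with 6 below 0 and 4 above.

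**Figure D1:**
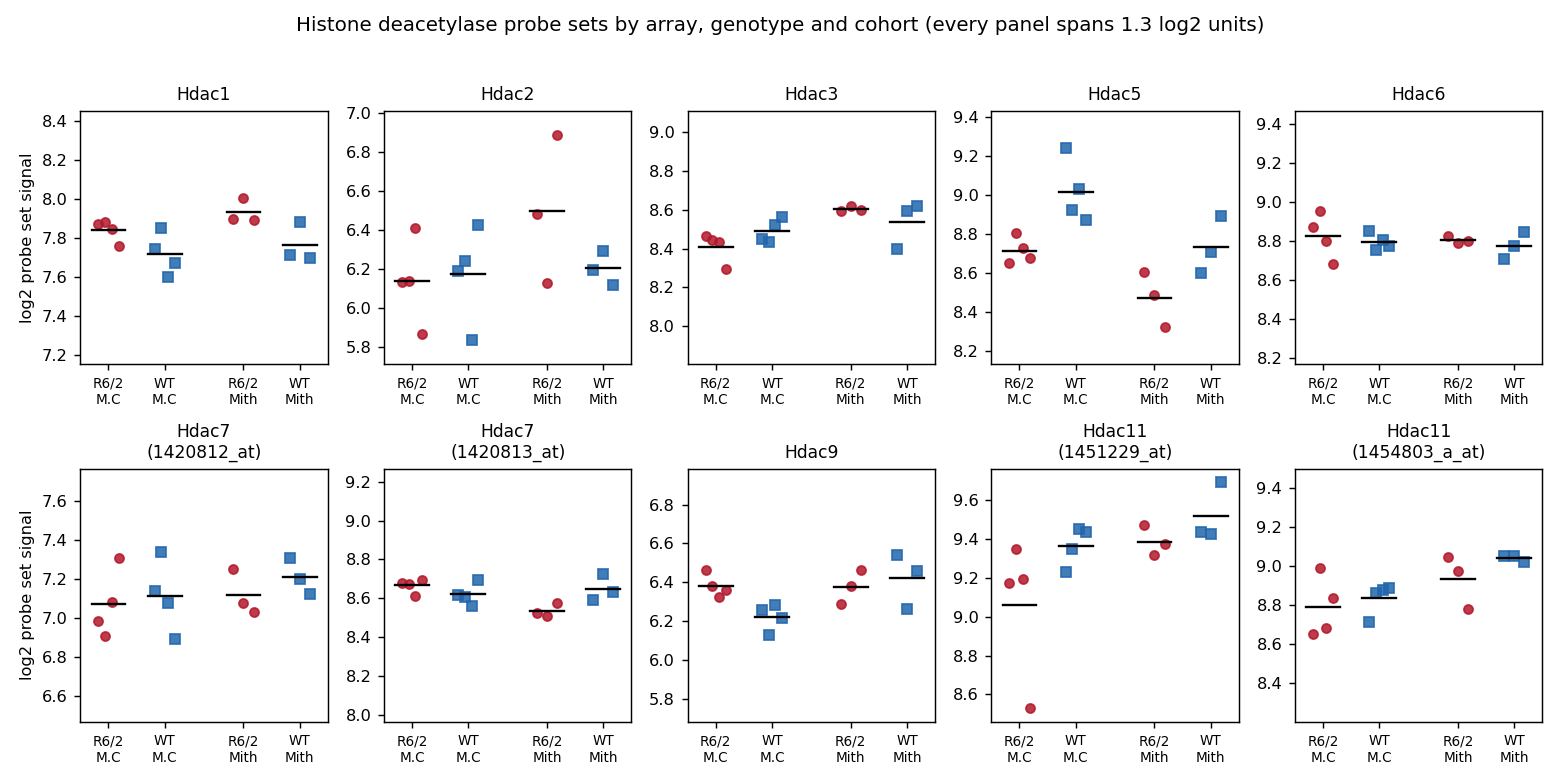
Each point is 1 array, with the log2 probe set signal on the vertical axis after centring the arrays on a common median, R6/2 (circles) left of wild-type (squares) within each cohort, and black bars for group means. All panels span the same range. Hdac5 is lower in the 4 R6/2 arrays of M.C (8.65 to 8.80) than in the 4 wild-type arrays (8.87 to 9.24), and 1 R6/2 array lies far below the others for Hdac11 (8.53).

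The arrays were alike in median signal and rank order, with deposited medians of 7.07 to 7.17 and a lowest mean rank correlation within a cohort of 0.981, for R6/2 replicate 4. RNA quality controls differed by genotype. The 3′ minus 5′ signal difference of the Actb control, which grows as RNA is degraded or incompletely copied, averaged 0.608 ± 0.181 in R6/2 and 0.373 ± 0.143 in wild-type arrays (SD, n = 7 each, exact two-sided permutation test within cohorts, p = 0.0186). The Gapdh control averaged 0.217 ± 0.207 in R6/2 and 0.0262 ± 0.0665 in wild-type arrays (SD, n = 7 each, exact two-sided permutation test within cohorts, p = 0.0143), and both had p = 0.0186 by the exact test when adjusted over the 2 measures. In M.C the Gapdh difference ran from 0.102 to 0.570 in R6/2 and from -0.0041 to 0.129 in wild-type arrays. In Mith it ran from -0.0224 to 0.133 in R6/2 and from -0.0686 to 0.0563 in wild-type arrays. Checked against the striatum label, 7 genes of striatal projection neurons had mean log2 signals of 9.24 to 11.4, and 6 of those 7 were called lower in R6/2 striatum. Of the other marker lists, 5 of 8 mature oligodendrocyte, 3 of 5 interneuron and 1 of 5 oligodendrocyte precursor genes were called lower. None of the measured astrocyte, microglia, vessel, cortical, thalamic, choroid plexus or erythroid genes was called by limma. Their median log2 differences were -0.27 for the astrocyte and -0.22 for the thalamic list, and -0.07 to 0.09 for the rest. The mean level of the thalamic genes, relative to the mean of all arrays, ran from -0.44 to 0.31 in R6/2 arrays. In wild-type arrays it ran from -0.40 to 0.93.

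Among the class IIa enzymes, Hdac5, a signal-responsive corepressor of Mef2 target genes that is abundant in brain, was the member called lower. In M.C its log2 signals were 8.65, 8.80, 8.73 and 8.68 in R6/2 striatum, against 9.24, 8.92, 9.03 and 8.87 in wild-type striatum. In Mith they were 8.60, 8.49 and 8.32 in R6/2 striatum, against 8.60, 8.71 and 8.89 in wild-type striatum. All R6/2 arrays of M.C lay below all wild-type arrays, while in Mith the highest R6/2 array and the lowest wild-type array met at 8.60. Over both cohorts Hdac5 averaged 8.61 ± 0.16 in R6/2 and 8.89 ± 0.21 in wild-type arrays (SD, n = 7 each), a log2 difference of -0.28 ± 0.07 (SE) with a limma adjusted p of 0.0331.

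The difference was of like size in the cohorts taken singly, -0.30 ± 0.09 (SE) in M.C and -0.26 ± 0.11 in Mith, but neither passed alone (limma adjusted p = 0.0979 and 0.529). Its interaction with cohort was -0.04 ± 0.14 (SE, limma adjusted p = 0.940), which leaves room for a cohort gap of -0.33 to 0.25. Hdac5 kept its sign in all 23 alternative fits, but the call was close to the threshold. It was lost without R6/2 replicate 1 (limma adjusted p = 0.0798), 3 (0.0612), 6 (0.0503) or 7 (0.0751), and without wild-type replicate 1 (0.0687), 3 (0.0753) or 7 (0.0779). It was also lost with quantile normalization (-0.24, limma adjusted p = 0.0558), without the cohort term (-0.28, 0.255) and with the Actb difference as a covariate (-0.26 ± 0.09, SE, 0.270). In that order these fits called 567, 100 and 56 probe sets on the whole array, beside 578 as reported.

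**Figure D2:**
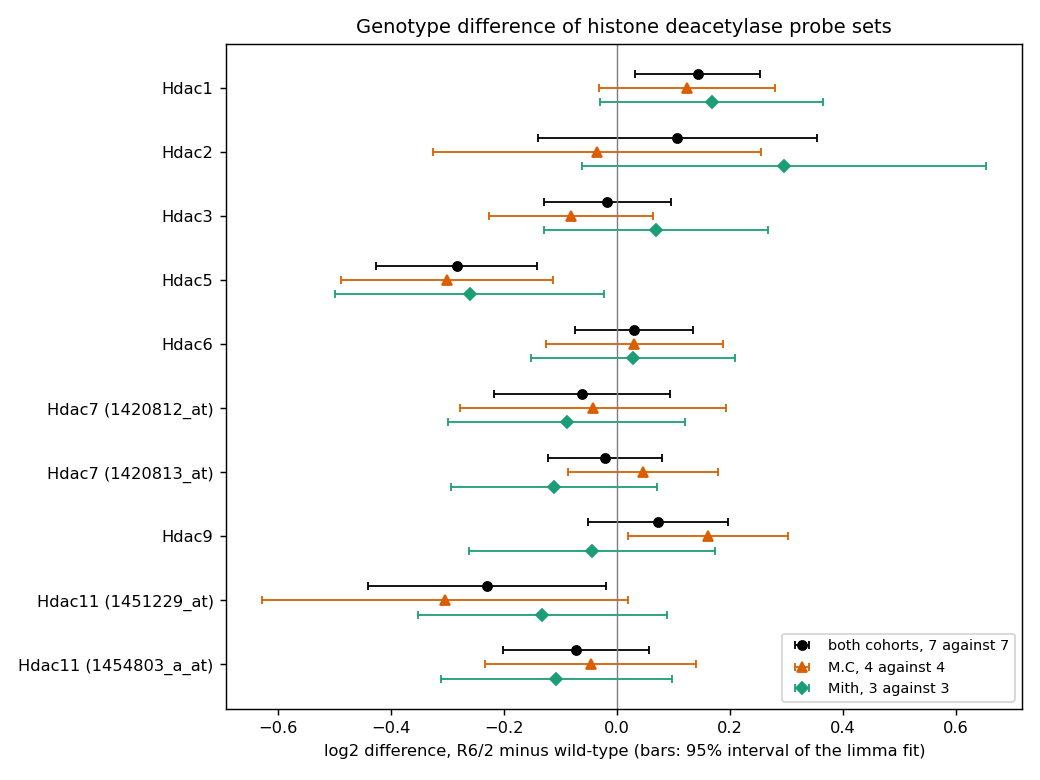
Each row is 1 deacetylase probe set, and the horizontal axis is its log2 difference, R6/2 minus wild-type, with the 95% interval of the limma fit for both cohorts (7 against 7), M.C (4 against 4) and Mith (3 against 3). For Hdac5 all 3 intervals lie below 0, and for Hdac2, Hdac3, Hdac7 (1420813_at) and Hdac9 the cohorts fall on opposite sides of 0.

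Marker genes of cell types differed by genotype on the same arrays. The mean level of the 7 projection neuron genes, on a log2 scale set to 0 at the mean of all arrays, lay between -0.56 and -0.10 in R6/2 arrays and between -0.18 and 0.61 in wild-type arrays. The groups overlapped only through wild-type replicate 5 of Mith (-0.18). In M.C they were apart, with R6/2 arrays up to -0.18 and wild-type arrays from 0.41. The wild-type array highest for these markers, replicate 1, was also the highest for Hdac5 (9.24), and the wild-type array lowest for them, replicate 5, was the lowest wild-type array for Hdac5 (8.60). Among R6/2 arrays the order differed. Replicate 2, second lowest for the markers (-0.55), was the highest for Hdac5 (8.80). Replicate 6, highest for the markers (-0.10), was second lowest for Hdac5 (8.49). Replicates 1 and 2 are of M.C and replicates 5 and 6 of Mith, and Hdac5 was higher in M.C by 0.26 ± 0.07 (SE). These orders therefore mix the cohort difference with any relation to the markers, which was not tested. With the mean level of 8 mature oligodendrocyte genes as a covariate the Hdac5 difference was -0.26 ± 0.12 (SE, limma adjusted p = 0.541). That fit called 2 probe sets on the whole array. In each cohort every R6/2 array had a lower oligodendrocyte level than every wild-type array. The fit therefore separates this level poorly from genotype. The part of projection neurons in the Hdac5 result was not tested, and in tissue RNA fewer cells of a type and less RNA per cell cannot be told apart.

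**Figure D3:**
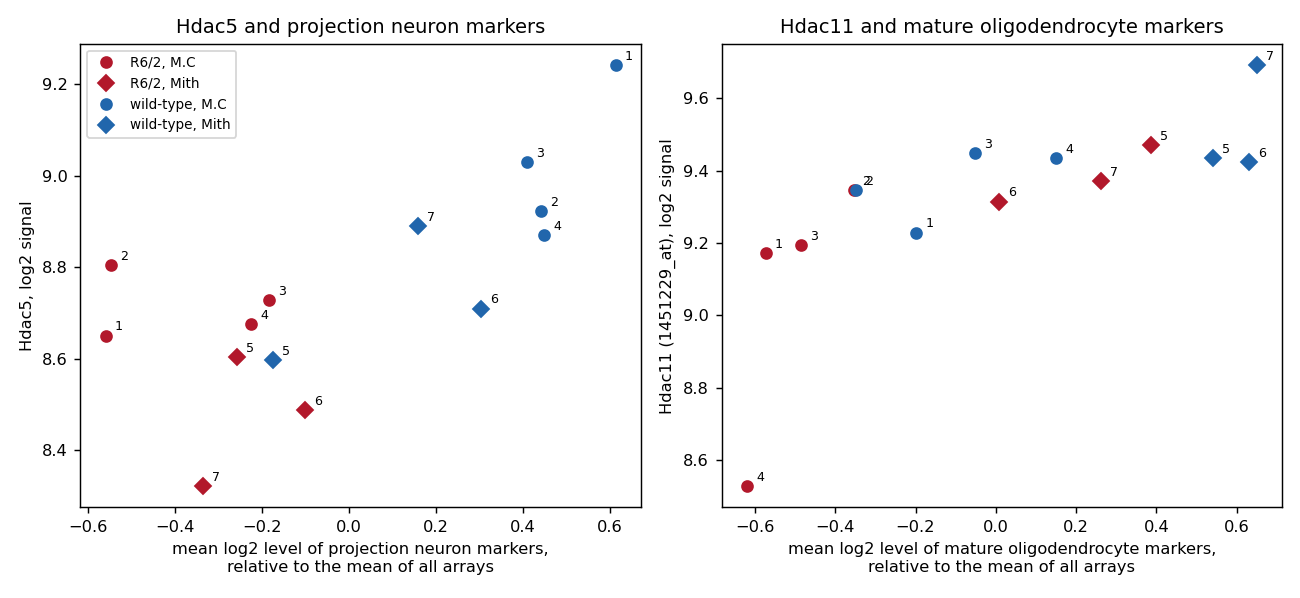
Left, the log2 signal of Hdac5 against the mean level of 7 projection neuron genes on each array. Right, the log2 signal of Hdac11 (1451229_at) against the mean level of 8 mature oligodendrocyte genes. Red is R6/2, blue wild-type, circles M.C, diamonds Mith, and the digit beside a point is the replicate number. R6/2 replicate 4 is lowest on both axes at right (-0.62 and 8.53), and wild-type replicate 7 is highest on both (0.65 and 9.69). These arrays differ in both genotype and cohort, and a relation of Hdac11 to the markers was not tested.

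The promoter of Hdac5 is shown because it was the called member, with the letters of common promoter motifs in capitals. The stretch is the 300 bases around the gene's start in the RefSeq annotation of GRCm38.p6, chr11:102230123-102230422, minus strand.

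Hdac5: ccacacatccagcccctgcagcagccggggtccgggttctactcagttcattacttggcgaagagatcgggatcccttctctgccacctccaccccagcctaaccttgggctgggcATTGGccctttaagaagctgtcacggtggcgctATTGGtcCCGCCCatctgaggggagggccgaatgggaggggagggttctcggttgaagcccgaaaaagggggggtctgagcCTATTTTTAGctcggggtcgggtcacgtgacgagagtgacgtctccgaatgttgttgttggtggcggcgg

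Its GC content was 60.7%, beside a median of 52.7% over 32851 promoters. Both strands were searched for 5 motifs. The window held 1 GC box (GGGCGG, here as its complement CCGCCC, found in 35.7% of all promoters) and 2 CCAAT boxes (CCAAT, here as ATTGG, 37.4%). It also held 1 match to a loose Mef2 pattern (CTA, any 4 bases, then TAG), which occurred in 3.69% of promoters. The Mef2 factors, which class IIa enzymes repress, bind a narrower set of letters, with A or T at the 4 open positions. A match to the loose pattern is therefore not by itself a Mef2 site. The Hdac5 match has T at all 4 and so also fits the narrower set. The share of promoters with the narrower set was not counted. Neither TATAAA (13.6%) nor the cyclic AMP response element TGACGTCA (1.79%) was found in this window. The other members searched were Hdac2, Hdac6, Hdac7, Hdac9 and Hdac11. Of these, Hdac2 and 1 of the 2 starts of Hdac9 also held a match to the loose Mef2 pattern. No promoter of Hdac1, Hdac3, Hdac4 or Hdac8 was read. These matches describe letters, and binding was not measured.

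By their pattern over the 14 arrays after subtracting each cohort's mean, the genes most like Hdac5 among 12385 compared were Tubb3, the beta-tubulin of neurons (Pearson r = 0.948), and Myo18a, an unconventional myosin (r = 0.923). Tubb3 had a log2 difference of -0.32 that did not pass (limma adjusted p = 0.0593), and Myo18a fell by 0.35 on the log2 scale (limma adjusted p = 0.00437). The genotype difference was kept in this pattern, so genes picked for likeness to Hdac5 tend to share its direction. Their differences are therefore not separate results.

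The other class IIa members did not pass. Hdac9, which in muscle and brain also exists in a form without a catalytic domain, had dim signals below the array's median. In M.C they were 6.47, 6.38, 6.32 and 6.36 in R6/2 striatum, against 6.26, 6.13, 6.28 and 6.22 in wild-type striatum. In Mith they were 6.29, 6.38 and 6.46 in R6/2 striatum, against 6.54, 6.27 and 6.46 in wild-type striatum. The genotypes were apart in M.C, with R6/2 higher, and mixed in Mith. The M.C difference was 0.16 ± 0.06 (SE) with a limma adjusted p of 0.240, over both cohorts it was 0.07 ± 0.06 (0.612), and the cohorts' gap was 0.20 ± 0.11 (0.544).

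Hdac7, best known from thymocytes and blood vessels, was read by a brighter probe set (1420813_at) and a dimmer one (1420812_at). The brighter one ranged from 8.51 to 8.70 in R6/2 and from 8.56 to 8.72 in wild-type arrays, with a log2 difference of -0.02 ± 0.05 (SE, limma adjusted p = 0.882). The dimmer one ranged from 6.91 to 7.30 in R6/2 and from 6.89 to 7.34 in wild-type arrays, a difference of -0.06 ± 0.07 (SE, limma adjusted p = 0.754). Over both cohorts together the genotypes overlapped almost completely for both probe sets. The 95% intervals of these fits were -0.12 to 0.08 for the brighter and -0.22 to 0.09 for the dimmer probe set. In Mith alone the brighter one had -0.11 ± 0.08 (SE, interval -0.29 to 0.07), and with the oligodendrocyte covariate the dimmer one had -0.28 ± 0.12 (SE, limma adjusted p = 0.477).

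In class I, Hdac1, a catalytic subunit of the Sin3, NuRD and CoREST complexes, had the highest signed difference of the 10 probe sets in the fit over both cohorts (in M.C that of Hdac9 was higher and in Mith that of Hdac2). In M.C its log2 signals were 7.87, 7.88, 7.84 and 7.76 in R6/2 striatum, against 7.74, 7.85, 7.60 and 7.67 in wild-type striatum. In Mith they were 7.90, 8.004 and 7.89 in R6/2 striatum, against 7.71, 7.88 and 7.70 in wild-type striatum. Every R6/2 array of Mith lay above every wild-type array, and in M.C the groups overlapped through 1 wild-type array. The means over both cohorts were 7.88 ± 0.07 in R6/2 and 7.74 ± 0.10 in wild-type arrays (SD, n = 7 each), a log2 difference of 0.14 ± 0.05 (SE, interval 0.03 to 0.25) with a limma adjusted p of 0.182. The sign held in all 23 alternative fits, and the adjusted p stayed between 0.0764 and 0.917. The difference was smallest with the oligodendrocyte covariate, at 0.05 ± 0.09 (SE). RefSeq also lists a pseudogene, Hdac1-ps, whose signal the probe set may not separate.

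Hdac2, the close relative of Hdac1 in the same complexes, had signals below the array's median that varied widely. In M.C it read 6.13, 6.14, 6.41 and 5.87 in R6/2 striatum, against 6.19, 6.24, 5.84 and 6.43 in wild-type striatum. In Mith it read 6.48, 6.13 and 6.89 in R6/2 striatum, against 6.196, 6.29 and 6.12 in wild-type striatum. The groups overlapped in both cohorts, and 1 R6/2 array of Mith, replicate 7, stood highest. The log2 difference was 0.11 ± 0.12 (SE, limma adjusted p = 0.728) and became 0.02 without that array, 0.0073 ± 0.15 (SE) with the Actb covariate and 0.35 ± 0.20 (SE) with the oligodendrocyte covariate. The interval of the fit without covariates ran from -0.14 to 0.35.

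Hdac3, the catalytic subunit of the NCoR and SMRT corepressors, ranged from 8.29 to 8.62 in R6/2 and from 8.40 to 8.62 in wild-type arrays. Its log2 difference of -0.02 ± 0.05 (SE, interval -0.13 to 0.10, limma adjusted p = 0.922) changed sign in 5 of 23 alternative fits. Hdac6 of class IIb, a mainly cytoplasmic enzyme that deacetylates tubulin, varied little. It ranged from 8.68 to 8.96 in R6/2 and from 8.71 to 8.85 in wild-type arrays, with a difference of 0.03 ± 0.05 (SE, interval -0.07 to 0.13, limma adjusted p = 0.834).

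Hdac11, the class IV enzyme, is found in brain, where oligodendrocytes are among the cells that express it. Its probe set 1451229_at read 9.17, 9.35, 9.19 and 8.53 in R6/2 striatum of M.C, against 9.23, 9.35, 9.45 and 9.44 in wild-type striatum. In Mith it read 9.47, 9.31 and 9.37 in R6/2 striatum, against 9.44, 9.42 and 9.69 in wild-type striatum. R6/2 replicate 4 lay far below all others and the remaining arrays overlapped. The log2 difference was -0.23 ± 0.10 (SE, limma adjusted p = 0.277), without that array it was -0.13 ± 0.06 (SE, limma adjusted p = 0.270), and with the Actb covariate it was -0.37 ± 0.12 (SE, limma adjusted p = 0.255).

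The other Hdac11 probe set, 1454803_a_at, ranged from 8.65 to 9.05 in R6/2 and from 8.71 to 9.05 in wild-type arrays, with a difference of -0.07 ± 0.06 (SE, limma adjusted p = 0.631). Mature oligodendrocyte levels ran from -0.62 to 0.39 in R6/2 and from -0.35 to 0.65 in wild-type arrays, lowest in R6/2 replicate 4. In M.C the highest R6/2 array was at -0.354 and the lowest wild-type array at -0.348. In Mith they were at 0.387 and 0.541, so the genotypes were apart within each cohort. With the oligodendrocyte level as a covariate the difference of 1451229_at was 0.04 ± 0.16 (SE) and that of 1454803_a_at was 0.01. Both were opposite in sign to the values without the covariate. Because the covariate was apart by genotype in each cohort, this fit separates it poorly from genotype. Neither Hdac11 probe set was called with or without the covariate.

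**Figure D4:**
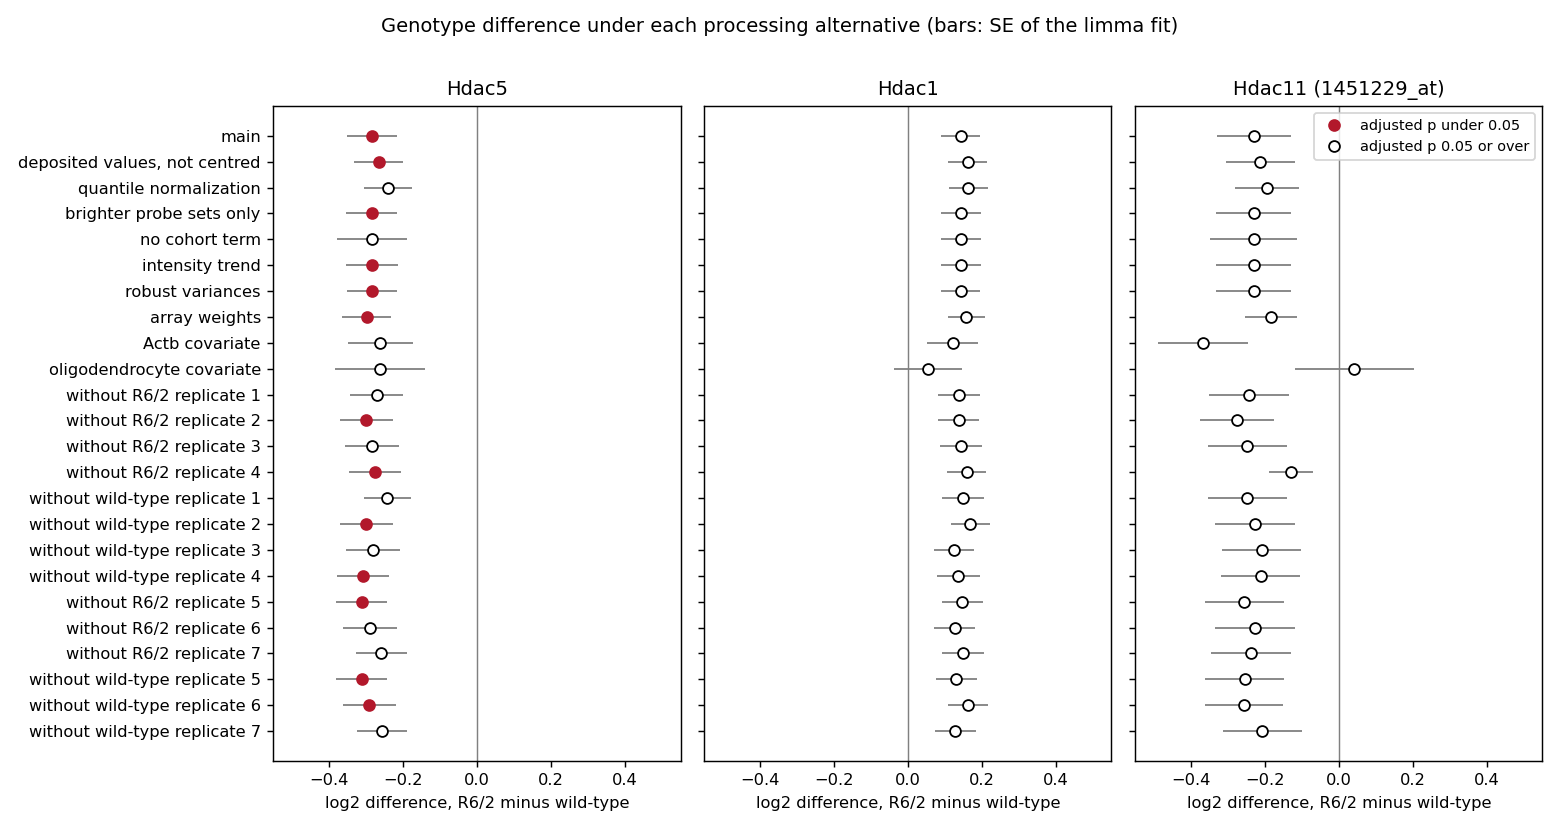
Rows are processing alternatives, the last 14 leaving out 1 array each. The horizontal axis is the log2 difference, R6/2 minus wild-type, with the SE of the limma fit, and filled points have an adjusted p under 0.05. Hdac5 stays below 0 throughout (-0.31 to -0.24) with filled and open points, Hdac1 stays above 0, and Hdac11 crosses 0 with the oligodendrocyte covariate.

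Tested within cohorts, 0 of the 10 deacetylase probe sets were called in M.C, where limma called 2.47% of all probe sets, and 2 had an unadjusted p under 0.05 (Hdac5 and Hdac9), as had 16.7% of all probe sets. In Mith 0 of 10 were called by limma, as was 0% of the array, and 1 had an unadjusted p under 0.05 (Hdac5), as had 8.87% of all probe sets. Groups without overlap gave 2 of 10 in M.C (Hdac5 lower, Hdac9 higher), beside 11.2% of all probe sets, and 2 of 10 in Mith (Hdac1 higher, 1420813_at of Hdac7 lower), beside 12.9%. No member was apart in both cohorts. The sign of the difference was the same in both cohorts for 6 of 10 probe sets and for 53.1% of all. The interaction of genotype and cohort was called by limma for 0 of 10 members and 0% of the array, with 0 members and 9.78% of all probe sets at an unadjusted p under 0.05.

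The cohorts themselves differed more than the genotypes. Between M.C and Mith, with genotype as a term, limma called 32.3% of all probe sets and 2 of the 10 deacetylase probe sets. Hdac5 was higher in M.C by 0.26 ± 0.07 (SE, limma adjusted p = 0.00711), a size near that of its genotype difference, and 1454803_a_at of Hdac11 was lower in M.C, at -0.17 ± 0.06 (SE, limma adjusted p = 0.0403). Hdac11's other probe set had -0.24 ± 0.10 (SE, limma adjusted p = 0.0816) and did not pass.

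Within genotype and cohort the members varied loosely with each other. Among 45 pairs of probe sets, residuals over the 14 arrays had r above 0 in 25 pairs and values from -0.77 to 0.78. Hdac3 and 1420812_at of Hdac7 ran opposite ways (Pearson r = -0.772, permutation p = 0.00114, adjusted over the pairs 0.0391, Spearman rho = -0.767, permutation p = 0.00187, adjusted 0.0841), and r was -0.744 without the 2 arrays farthest from the median. The other Hdac7 probe set, 1420813_at, did not share this pattern, with r = 0.287 to Hdac3 and r = -0.286 to 1420812_at. Hdac6 and 1451229_at of Hdac11 ran together (r = 0.782, permutation p = 0.00174, adjusted 0.0391, rho = 0.534, permutation p = 0.0525, adjusted 0.394). That relation rests on R6/2 replicates 4 and 2, since r was 0.303 without them. The other 43 pairs did not pass the adjustment, and none of the 45 passed by rank. The permutations ran freely over the 14 residuals, although each genotype-by-cohort mean had been subtracted. This makes the permutation p-values too small, so the 2 pairs with an adjusted p under 0.05 are not taken as established.

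The partners of the deacetylases were read from lists by role, beside a background of 315 called genes among 12393 (2.54%). The corepressor complexes, the sirtuins, the acetyltransferases and the bromodomain and related readers of acetyl-lysine made 7 lists of 69 genes, 50 of them measured. Limma called 0 of the 50, and 5 had an unadjusted p under 0.05, beside 1866 of all 12393 genes. Their median difference was -0.02 and their range -0.19 to 0.27, beside a median of 0.01 for all genes.

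In the Sin3 complex (9 of 13 genes measured, median -0.02) the smallest p belonged to Sap30, a subunit that helps hold the complex together, with log2 signals of 6.32 ± 0.16 in R6/2 and 6.05 ± 0.14 in wild-type arrays (SD, n = 7 each, difference 0.27, limma adjusted p = 0.0779). In CoREST (8 of 10, median -0.01) it was the zinc finger subunit Zmym3, at 8.32 ± 0.15 in R6/2 and 8.51 ± 0.17 in wild-type arrays (SD, n = 7 each, difference -0.19, limma adjusted p = 0.0786). These were the closest to a call. In NuRD (10 of 11, median -0.06) the histone chaperone Rbbp7 had -0.18 (limma adjusted p = 0.303), and in the NCoR and SMRT complex (3 of 5, median -0.04) Tbl1x had -0.07 (limma adjusted p = 0.658). Of the sirtuins, the NAD-dependent deacetylases (5 of 7, median 0.05), Sirt7 had -0.16 (limma adjusted p = 0.184). The acetyltransferases (9 of 14, median 0.02) were led by Kat6b at -0.14 (limma adjusted p = 0.380), and the readers (6 of 9, median -0.02) by Brd7 at 0.08 (limma adjusted p = 0.704).

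The next list holds proteins that bind class IIa enzymes or send them out of the nucleus, namely Mef2 factors, 14-3-3 proteins and kinases. It had 20 of 22 genes measured, with a median of -0.12. Limma called 1 of the 20 lower and 0 higher, and 8 had an unadjusted p under 0.05, beside 1866 of all 12393 genes. Those 8, named after their values were seen, were all lower in R6/2 striatum. They were Camk2b, Camk2a, Prkd3, Mef2d and the 14-3-3 genes Ywhaz, Ywhaq, Ywhab and Ywhah. The called gene was Camk2b, a calcium and calmodulin-dependent kinase subunit abundant in neurons, at 9.11 ± 0.19 in R6/2 and 9.53 ± 0.33 in wild-type arrays (SD, n = 7 each). This was 74.7% of the wild-type level (difference -0.42 ± 0.09, SE, limma adjusted p = 0.0204). Camk2a, named after its values were seen, had a larger difference of -0.72 ± 0.28 (SE) but spread widely, at 6.76 ± 0.90 in R6/2 and 7.48 ± 0.25 in wild-type arrays (SD, n = 7 each), and did not pass (limma adjusted p = 0.210).

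Neuronal genes that respond to activity or to Mef2 had the lowest median of these lists, -0.37. Limma called 5 of 8 measured genes lower and 0 higher, beside 257 lower and 58 higher of all 12393 genes. All 8 differences lay below 0. The list was chosen with earlier results of these data known. Arc, a synaptic immediate early gene, fell by 0.58 on the log2 scale (8.11 ± 0.11 in R6/2, 8.69 ± 0.18 in wild-type arrays, SD, n = 7 each, limma adjusted p = 9.62e-04). Egr1, an immediate early transcription factor, fell by 0.65 (10.6 ± 0.17 in R6/2, 11.2 ± 0.25 in wild-type arrays, SD, n = 7 each, limma adjusted p = 0.00318). Homer1, a scaffold of the postsynaptic density, fell by 0.64 (7.21 ± 0.34 in R6/2, 7.85 ± 0.42 in wild-type arrays, SD, n = 7 each, limma adjusted p = 0.00998). The other 2 called lower, named after their values were seen, were the nuclear receptor Nr4a1 (-0.38, limma adjusted p = 0.0315) and the potassium channel subunit Kcna1 (-0.36, limma adjusted p = 0.0492). On the same arrays 6 of 7 projection neuron genes were called lower and the Actb 3′ minus 5′ difference was higher in R6/2 striatum. The part of either in these falls was not tested. The list holds several genes that neurons also induce without Mef2, and its relation to Hdac5 was not tested.

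**Figure D5:**
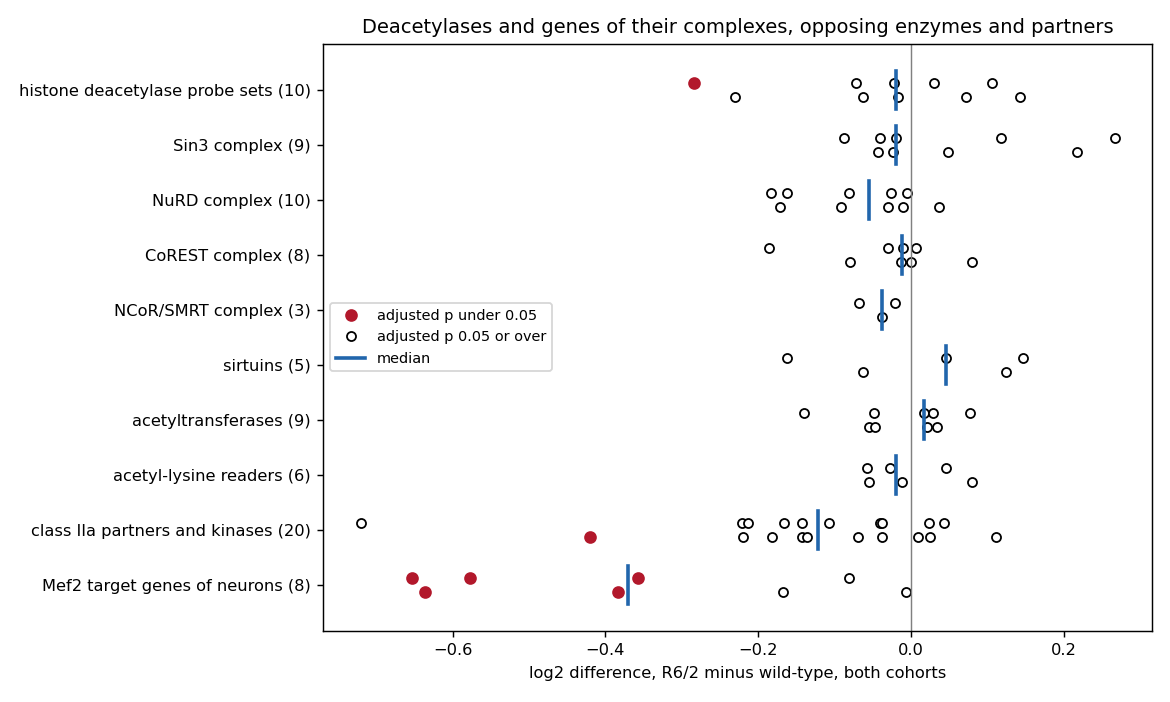
Each row is a list, with the number of points in brackets, and each point is 1 gene (in the top row, 1 deacetylase probe set), placed by its log2 difference, R6/2 minus wild-type, over both cohorts. Filled points have a limma adjusted p under 0.05 and blue bars are medians. The 7 chromatin lists hold no filled point, the class IIa partners and kinases hold 1 (Camk2b, -0.42) and the neuronal Mef2 list holds 5.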

How the data were processed

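The authors deposited log2 probe set signals, read as log2 from their values of 2.96 to 14.5, for 22690 probe sets. The summary and normalization steps behind them are not given in the sources used here. After 64 controls were dropped, arrays were shifted to share 1 median over the 22626 probe sets that remained. Symbols came from the platform table and were updated by gene ID (20380 probe sets with 1 symbol, 691 with several, 1555 unnamed). The gene ID settled older names, and a gene's own probe set was its brightest one.

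Genotype was fitted for every probe set (limma 3.58.1, R 4.3.3, lmFit and eBayes, two-sided) with cohort as a term, then within cohorts, as an interaction with cohort, and between cohorts. Correlations used 100000 permutations of the residuals, not restricted to genotype and cohort, so their p-values are too small. The number of arrays limits the precision. The members, lists and tests were chosen with earlier results of these data known. Named genes were all members, up to 3 called genes of each list or else the gene of smallest p, and the 2 genes most like a called member. Other scalings, filters, variance models, array weights, 2 covariates and each array left out were tried. The fits were tested on simulated data. Promoters came from RefSeq (GRCm38.p6).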

Additional observations from a re-analysis of the deposited data

Results flagged for a closer look

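In each group of 4 or 7 arrays the highest and lowest values of every deacetylase probe set were examined for 1 array standing apart (Dixon's test, 40 groups, of which chance picks out about 1 in 20). Hdac11 (1451229_at) was low in R6/2 replicate 4 at a log2 signal of 8.53, a gap of 0.684 of the whole range of the 7 R6/2 arrays. Hdac11 (1454803_a_at) was low in wild-type replicate 1 at 8.71, below the other 3 wild-type arrays of M.C, which lay between 8.86 and 8.89.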

How the results depend on the processing

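The count of called deacetylase probe sets over both cohorts, 1 as reported, was 0 with quantile normalization, no cohort term, the Actb covariate or the oligodendrocyte covariate, and 0 to 1 with 1 array left out. The oligodendrocyte covariate left 2 calls on the whole array, the Actb covariate 56, no cohort term 100 and array weights 1333, beside 578, and leaving out 1 array gave 280 to 879. In M.C quantile normalization gave 371 calls and leaving out 1 array 242 to 962, beside 558. Leaving out 1 array gave up to 13 calls in Mith and up to 7 for the interaction, beside 0 for each. The cohort count, 2 as reported, was 1 with the deposited values or quantile normalization and 1 to 3 with 1 array left out. With all probe sets of a gene averaged, 9 list genes were called, beside 6. Of the 10 differences, 6 changed sign under some setting. Hdac3 was 0.0010 with the deposited values, 0.014 with quantile normalization, 0.078 with the oligodendrocyte covariate and -0.051 to 0.0093 with 1 array left out. Hdac6 was -0.022 with the Actb covariate. Hdac7 (1420812_at), -0.06 as reported, was 0.051 with the Actb covariate and -0.28 with the oligodendrocyte covariate. Hdac7 (1420813_at) was 0.021 with quantile normalization, 0.013 with the oligodendrocyte covariate and -0.038 to 0.00080 with 1 array left out. Hdac11 was 0.042 (1451229_at, -0.23 as reported) and 0.010 (1454803_a_at) with the oligodendrocyte covariate. The cause was not tested. No paired analysis was possible because the replicate numbers only follow the order of the record. Signals of Hdac2 and Hdac9 below the array's median limit what their differences show.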
